A study of Homo sapiens with 6 samples.

Results

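Open chromatin was examined at 10 genes that mark or build T cells, namely CD3D, CD3E, CD3G, CD4, CD8A, CD2, LCK, GATA3, TCF7 and BCL11B, in GM12878, a line of human B lymphoblastoid cells immortalised with Epstein-Barr virus. ATAC-seq cuts and tags accessible DNA with the Tn5 transposase, so a pile of reads, called as a peak, marks a stretch of open chromatin. Peaks of different libraries that overlapped or touched were merged into 1 region, and a region belonged to a gene if it reached into the hg19 gene body of GENCODE or the 5 kb to either side. Of 56447 regions in all, 21 lay in the windows of these 10 of 19821 protein-coding genes.

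All 6 libraries came from bulk GM12878 cells of 1 line that were fixed in 1% PFA, tagged with Tn5 and then reverse crosslinked with proteinase K. By their labels, the groups differ in that last step. The old buffer contains SDS and its DNA was purified before PCR, the new buffer lacks SDS, and DNA from the new buffer was either purified or amplified without purification, with 2 libraries for each of the 3 protocols. For the unpurified workflow the paper also describes its own level of the detergent Igepal at lysis, an EDTA quench and a spin with the supernatant discarded. The protocols may thus differ in more than buffer and purification. No library involved an antibody. Each library held 30136 to 38023 peaks, the fewest in the purified new buffer replicate 2. The median peak had 20 to 22 reads at its summit. Total read numbers are not in the peak lists, and the lowest local background placed the relative depth of the libraries between 1 and 1.24.

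A T cell recognises antigen with a receptor whose signal is carried into the cell by the CD3 chains, among them CD3D, CD3E and CD3G. CD4 and CD8A are coreceptors that hold the kinase LCK at the receptor, and CD2 is an adhesion receptor. GATA3, TCF7, whose protein is called TCF-1, and BCL11B are transcription factors that set up the T lineage in the thymus. In a B-cell line they are genes of another lineage. Promoters rich in CpG dinucleotides are open in many cell types whether or not the gene is transcribed, and promoters poor in CpG are more often open only in the cells that use them.

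Promoter regions were called at 4 of the 10 genes, CD8A, GATA3, TCF7 and BCL11B, each in all 6 libraries. No library called a region within 1 kb of any start of CD3D, CD3E, CD3G, CD4, CD2 or LCK. Over all protein-coding genes, 45.5% had a promoter region called in all 6 libraries and 60.6% in at least 1 library. The 4 of 10 T-cell genes are near the first share, which is no result about them. The 3 genes CD3D, CD4 and LCK had no region anywhere in the window, and 75.3% of all protein-coding genes had one. Of the 21 regions, 8 were called in all 6 libraries, 3 in 5, 4 in 4, 1 in 3 and 5 in a single library, beside 35.5% of all regions that were called in all 6.

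By position, 5 of the 21 regions lay within 1 kb of a start of the gene itself, 15 were distal and 1 was the promoter of a neighbour. The own promoters included 4 regions in all 6 libraries and the distal set 3 of 15, GATA3-5, TCF7-4 and TCF7-5. The shares of all promoter and all distal regions called in all 6 were not counted. The split is therefore no result about these genes. Regions are numbered along the chromosome for each gene.

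The sequences before the starts show how the called and uncalled promoters differ in CpG content, a feature that the choice of genes did not use. The lines that follow give the 200 bp before the start on the strand of the gene, read from hg19, with CG dinucleotides in capitals, first for the 4 called promoters and then for 2 that no library called. For GATA3 and CD8A the start nearest to the called region was used, which is not the canonical start, so the call itself picked these starts. The uncalled genes are shown at the canonical start only.
GATA3, chr10:8095367-8095566, plus strand, 23 CpG, called: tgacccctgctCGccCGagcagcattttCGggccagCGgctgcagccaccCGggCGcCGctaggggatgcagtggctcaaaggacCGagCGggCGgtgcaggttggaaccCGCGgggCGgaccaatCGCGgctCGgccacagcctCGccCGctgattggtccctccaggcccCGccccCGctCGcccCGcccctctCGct
TCF7, chr5:133450172-133450371, plus strand, 21 CpG, called: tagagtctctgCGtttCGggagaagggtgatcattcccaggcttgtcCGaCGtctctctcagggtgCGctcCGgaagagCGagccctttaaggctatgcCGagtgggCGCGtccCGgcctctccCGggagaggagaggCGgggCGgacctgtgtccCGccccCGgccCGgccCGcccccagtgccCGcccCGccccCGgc
BCL11B, chr14:99738535-99738734, minus strand, 12 CpG, called: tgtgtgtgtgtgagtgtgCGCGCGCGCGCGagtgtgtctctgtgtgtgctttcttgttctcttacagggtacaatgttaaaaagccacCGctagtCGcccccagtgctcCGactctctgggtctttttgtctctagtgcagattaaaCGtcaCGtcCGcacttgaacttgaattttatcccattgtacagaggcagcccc
CD8A, chr2:87035520-87035719, minus strand, 9 CpG, called: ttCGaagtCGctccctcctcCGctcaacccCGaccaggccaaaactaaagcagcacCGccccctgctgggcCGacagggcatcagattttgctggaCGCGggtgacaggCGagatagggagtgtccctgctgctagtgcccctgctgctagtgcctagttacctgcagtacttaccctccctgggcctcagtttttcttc
CD3D, chr11:118213421-118213620, minus strand, 3 CpG, not called: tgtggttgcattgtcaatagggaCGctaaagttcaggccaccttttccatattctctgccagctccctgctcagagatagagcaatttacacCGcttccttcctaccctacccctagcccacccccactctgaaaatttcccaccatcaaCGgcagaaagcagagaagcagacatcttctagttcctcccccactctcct
CD2, chr1:117296852-117297051, plus strand, 4 CpG, not called: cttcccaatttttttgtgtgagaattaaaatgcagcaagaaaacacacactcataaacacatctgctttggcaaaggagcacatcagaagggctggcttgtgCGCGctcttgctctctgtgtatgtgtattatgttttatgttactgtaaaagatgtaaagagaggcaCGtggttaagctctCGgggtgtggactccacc

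The called sequences held 9 to 23 CpG in 200 bp and the uncalled ones printed held 3 and 4. CD4 with 4 and LCK with 7 CpG, both uncalled, also lay below the called promoters. In the 1 kb around the canonical start, all 6 uncalled genes were CpG-poor, with an observed to expected CpG ratio from 0.139 at CD3G to 0.308 at LCK, and the 4 called genes were CpG-rich, from 0.717 at CD8A to 0.943 at TCF7. CpG-rich here means a ratio of at least 0.6 and a GC content of at least 50%. Protein-coding genes were classed by the canonical start, and a promoter region at any of their starts counted as a call. Of those with a CpG-rich canonical start 62.7% were called in all 6 libraries, and of those with a CpG-poor one 14.1%. With 25.3% of CpG-poor genes called in at least 1 library, 0 of 6 CpG-poor T-cell genes had a call, a small number that was not tested against that share. CD8A is an exception to the reading by canonical start. Its CpG-rich canonical start carried no region, and the summit of its open region lies 17.7 kb upstream. The start there has a ratio of 0.557, below the limit of 0.6 for CpG-rich.

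**Figure D1:**
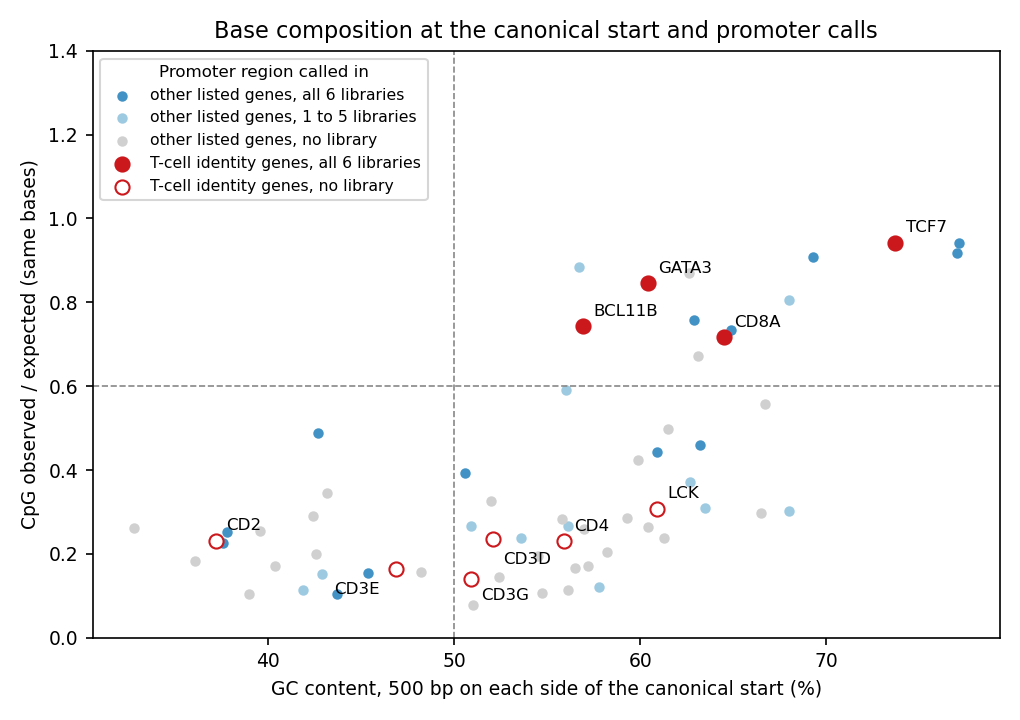
GC content in percent (x axis) and observed to expected CpG ratio (y axis) in the 500 bp on each side of the canonical start, for the 10 T-cell identity genes (red, named) and the other listed T-cell, B-cell, erythroid and myeloid genes (blue and grey); dashed lines mark 50% and 0.6. All 4 genes with a called promoter lie above and to the right of both lines and all 6 without one below a ratio of 0.6. The CD8A and GATA3 regions lie nearer to other starts than to the canonical one.

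**Figure D2:**
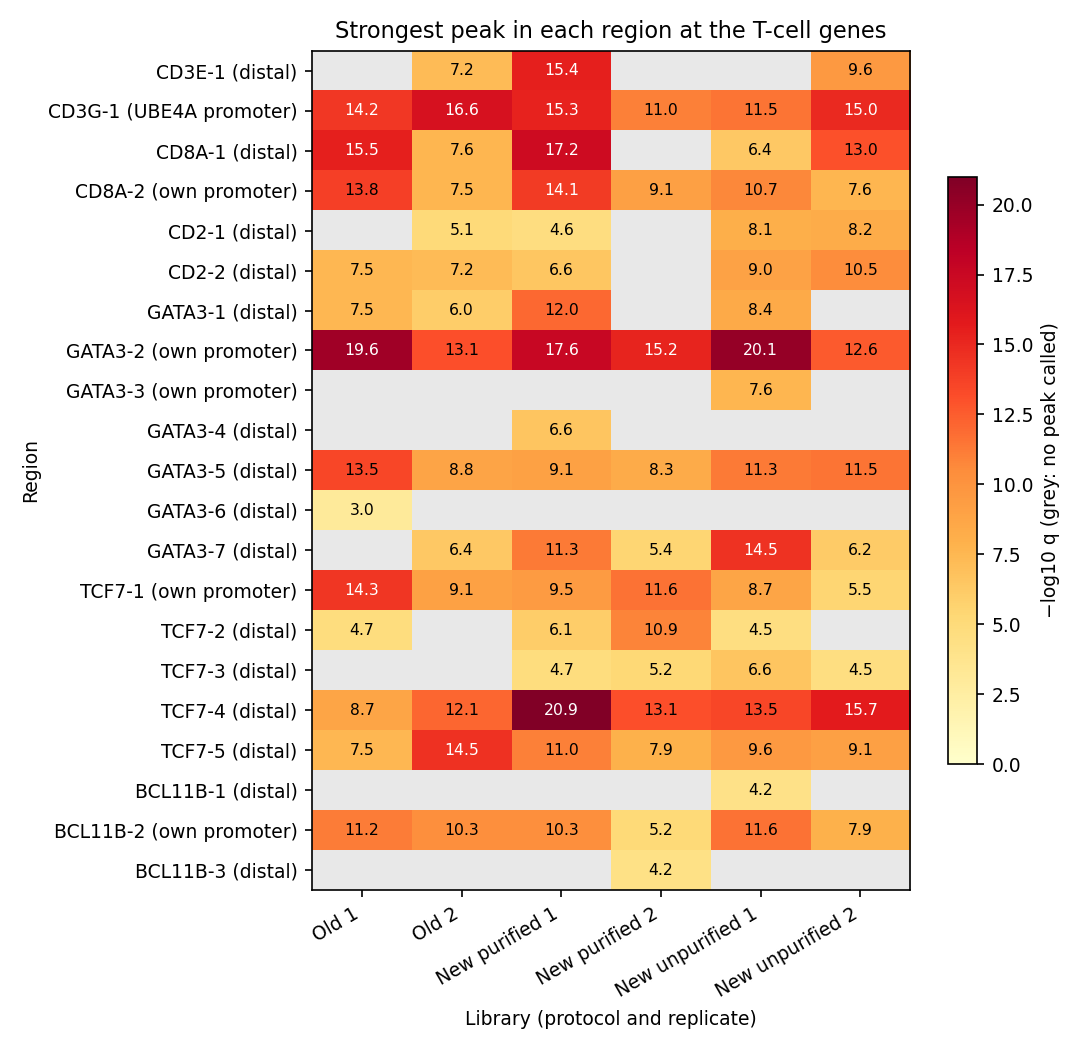
The −log10 q of the strongest peak of each of the 21 regions (rows) in each of the 6 libraries (columns), with grey where no peak was called. The 8 regions filled across all columns include 4 own promoters, and 5 regions are filled in 1 column.

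**Figure D3:**
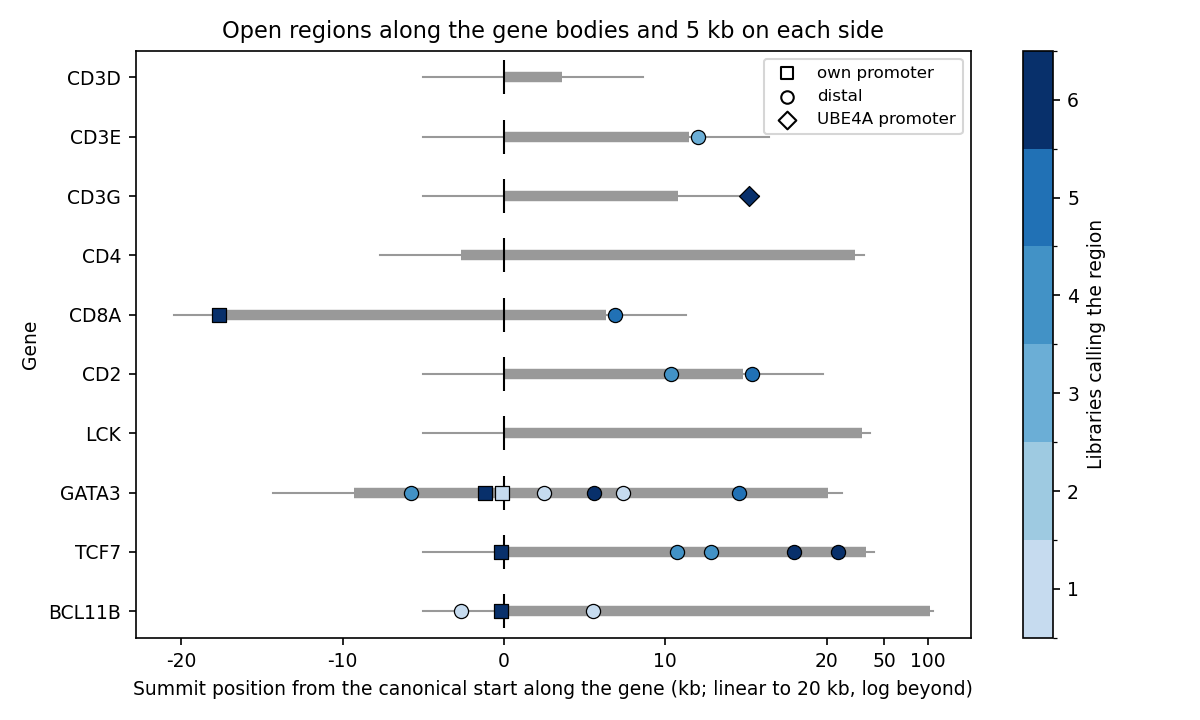
Summits of the 21 regions (x axis, kb from the canonical start along the gene, linear to 20 kb and log beyond) for each gene (y axis); thick bars are gene bodies, thin lines the 5 kb on each side, the colour is the number of libraries calling the region, and the marker its class. CD3D, CD4 and LCK have no marker, and GATA3 has the most with 7.

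The strength of a region was read from the rank of its strongest peak by −log10 q within each library, given as a percentage of the peaks of that library, so that a low percentage is a strong peak. The best rank of the whole set was 6897 of 38023 peaks, for TCF7-4 in the purified new buffer replicate 1, or 18.1%. None of the 10 genes carried a peak among the strongest 18% of any library. The T-cell gene peaks had a median rank of 44.8% to 56.1% by library, near the middle of each list.

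The GATA3 promoter was the strongest of the own promoters. GATA3-2, at chr10:8095298-8095817, has its summit 76 bp upstream of one GATA3 start and 1160 bp upstream of the canonical one, and also overlaps the antisense lncRNA gene GATA3-AS1, which ATAC-seq cannot tell apart from GATA3 because it reads no strand. Its −log10 q was 19.6 and 13.1 in the old buffer, 17.6 and 15.2 in the purified new buffer and 20.1 and 12.6 in the unpurified new buffer. Replicate 1 was the higher one in each protocol and the ranges of the protocols overlapped. Over all peaks of a library, replicate 1 also had the higher median −log10 q in each protocol. The ranks ran from 19.3% to 36.6% with a mean of 26.2% ± 6.82 (SD, n = 6 libraries). Beside all regions called in all 6 libraries, 40.6% were as strong or stronger by mean rank.

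A second, weak call at the canonical GATA3 start, GATA3-3 at chr10:8096383-8096664 over exon 1, came from the unpurified new buffer replicate 1 alone, with a −log10 q of 7.60. In the window of GATA3 5 distal regions were called. GATA3-5 in intron 3, at chr10:8102089-8103650, was found in all 6 libraries with a −log10 q of 8.31 to 13.5. It is 1562 bp long and was chained together from 12 peaks, whose summits fell between 8102253 and 8102373 or between 8102899 and 8103383, so it holds at least 2 neighbouring sites. The old buffer replicate 2 called a peak in the downstream group only. GATA3-7 in intron 4, at chr10:8111005-8111434, was called in 5 libraries, from a −log10 q of 5.44 to 14.5, and was missing from the old buffer replicate 1. GATA3-1, upstream of the canonical start at chr10:8090424-8090980, was called in 4 libraries. GATA3-4 and GATA3-6 were called in 1 library each.

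The reads around the peaks were more numerous at GATA3 than at the other T-cell genes, a comparison of values that was not tested. The local background, the number of reads that the peak caller sets against the summit, was 6.32 to 10.6 reads at GATA3-2, while the median peak of the 6 libraries had 2.50 to 3.06. Only 1.65% to 5.31% of the peaks of a library had as high a background. The other regions from GATA3-1 to GATA3-6 had 5.24 to 12.1 reads of background, and GATA3-7 had 1.51 to 2.54. At the other 6 genes with regions the values lay between 1.52 and 4.94. The summit of GATA3-2 held 49, 36, 49, 42, 57 and 45 reads, in the order old, purified new and unpurified new buffer. Ranked by summit reads, GATA3-2 moved to a mean of 11.2% ± 3.14 (SD, n = 6) and GATA3-5 from 46.1% to 22.9%. The choice of rank by reads was made after seeing the data. The peak lists hold no reads outside peaks, and what sets this background was not tested.

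**Figure D4:**
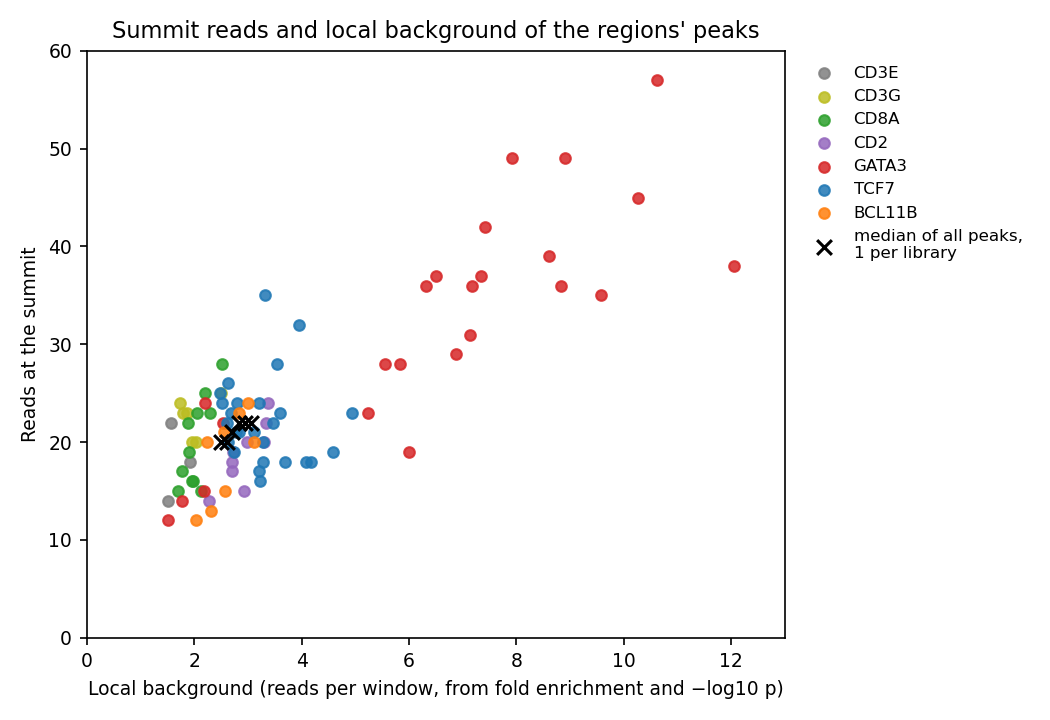
Reads at the summit (y axis) against reads of local background (x axis), both solved from fold enrichment and −log10 p, for the strongest peak of each T-cell gene region in each library that called it, coloured by gene; crosses are the medians of all peaks in the 6 libraries. GATA3 peaks reach 12.1 reads of background and 57 reads at the summit, and the peaks of the other genes stay at or below 4.94 and 35.

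For the GATA3 promoter, the 3 closest patterns of promoter rank over the 6 libraries, among 9023 other genes with a promoter region called in all 6, were those of JUND, an AP-1 transcription factor, of CADPS2, which acts in secretion of vesicles, and of a region shared by RNF167 and SLC25A11. Their Euclidean distances over the 6 ranks were 5.32, 9.25 and 9.51 percentage points.

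TCF7 carried the most regions called in all 6 libraries, 3 of 5. TCF7-1, at chr5:133449961-133450574, covers the canonical start and reaches into exon 1. Its −log10 q was 14.3 and 9.06 in the old buffer and 9.48 and 11.6 in the purified new buffer. In the unpurified new buffer it was 8.71 and 5.45. Both unpurified libraries lay below the other 4, a split that was not tested. How many of all regions split by protocol in this way was not counted. The rank ran from 31.5% to 81.1%, with a mean of 51.3% ± 17.2 (SD, n = 6).

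A pair of intronic regions of TCF7 were called as often as its promoter. TCF7-4 in intron 3, at chr5:133468018-133468712, lies 17979 bp downstream of the canonical start. Its −log10 q was 8.71 and 12.1 in the old buffer, 20.9 and 13.1 in the purified new buffer and 13.5 and 15.7 in the unpurified new buffer. The old buffer libraries held the 2 lowest values, a split that was likewise not tested or counted over all regions. In mean rank TCF7-4 (33.9% ± 12.5, SD, n = 6) stood before TCF7-1, with ranges that overlapped. TCF7-5 in intron 4, at chr5:133473926-133474521, had a −log10 q of 7.54 and 14.5, 11.0 and 7.94, and 9.64 and 9.12 in the same order, with the highest and the lowest value both in the old buffer. Both are poor in CpG, with ratios of 0.292 and 0.0472, against 0.859 in TCF7-1.

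TCF7-2 at chr5:133460897-133461288 and TCF7-3 at chr5:133463064-133463455, both in intron 3, were called in 4 libraries. TCF7-3 was called in all 4 new buffer libraries, with a −log10 q of 4.55 to 6.58, and in neither old buffer library. Of 4367 regions called in 4 libraries, 6.14% lacked the same pair, a share within the range of 2.56% to 14.1% over the 15 possible pairs.

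The summit of TCF7-4 is shown because it is the strongest distal site of the set by mean rank of −log10 q. Ranked by summit reads, GATA3-5 stood before TCF7-4, with means of 22.9% and 35.5%. The sequence is given on the plus strand of hg19, and the capitals mark an E-box match, which on the minus strand reads CAGGTG.
TCF7-4, chr5:133468251-133468450: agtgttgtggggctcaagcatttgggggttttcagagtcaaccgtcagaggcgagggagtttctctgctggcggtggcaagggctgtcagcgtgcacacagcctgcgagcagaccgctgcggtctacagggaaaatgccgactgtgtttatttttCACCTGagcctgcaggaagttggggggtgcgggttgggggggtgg

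A set of 10 short motifs was searched on both strands in the 200 bp around the summit of the 8 regions called in all 6 libraries. The E-box CAGGTG, read by E proteins and ZEB factors, was in 3 of 8, CD8A-2, TCF7-4 and TCF7-5, beside 13.3% of all regions called in all 6. The ETS letters CCGGAAG were in CD3G-1 and TCF7-1, beside 7.71%. AP-1, as TGANTCA, was in TCF7-5, beside 13.8% of all such regions. The TCF/LEF letters CTTTGA were in GATA3-2, beside 11.3%. CTCF, as CCANNAGGG, was in CD8A-2, beside 4.13%. The letters for RUNX (TGTGGT), held by 21.2% of all such regions, had no match in the 8 windows. No match was found either for PU.1 as GAGGAAG with 8.95%, for GATA as AGATAA with 6.55%, for NF-kB as GGANTTTCC with 2.91% and for EBF as CCCNNGGGA with 5.57%. A match is a run of letters, and binding was not measured.

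The BCL11B promoter was open at its canonical start. BCL11B-2, at chr14:99738416-99738898, covers the start, reaches into exon 1 and had a −log10 q of 11.2 and 10.3 in the old buffer, 10.3 and 5.16 in the purified new buffer and 11.6 and 7.88 in the unpurified new buffer. The purified new buffer replicate 2, which also has the fewest peaks, was lowest, and the other 5 libraries lay between 7.88 and 11.6. The mean rank was 52.8% ± 16.7 (SD, n = 6), and 81.0% of all regions called in all 6 libraries were as strong or stronger. The gene is 102911 bp long, and 2 other regions were called in its window of 112911 bp. They were BCL11B-1 in intron 1 and BCL11B-3 upstream, each in a single library, with −log10 q values of 4.15 and 4.22. All protein-coding windows held 2.48 regions per 100 kb, so the 3 regions of this window are near the common rate. Regions covered 0.791% of the BCL11B window and 9.49% of the GATA3 window.

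CD8A showed an open start far from its canonical one. CD8A-2, at chr2:87035401-87035946, covers the outermost annotated start of the gene, at 87035519, with its summit 193 bp upstream of it. Its −log10 q was 13.8 and 7.55 in the old buffer, 14.1 and 9.13 in the purified new buffer and 10.7 and 7.60 in the unpurified new buffer, so the protocols overlapped and replicate 1 was the higher of each pair. The median −log10 q over all peaks was also higher in replicate 1 of each protocol. The mean rank of CD8A-2 was 47.4% ± 12.8 (SD, n = 6). CD8A-1, at chr2:87011012-87011537 just beyond the 3′ end of the gene, was called in 5 libraries, with a −log10 q from 6.37 to 17.2, and was missing from the purified new buffer replicate 2.

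The CD3 genes, which lie together on chromosome 11, had no called promoter. CD3E-1, at chr11:118187291-118187720, begins 401 bp past the end of CD3E and was called in 3 libraries, 1 of each protocol. Its −log10 q was 7.24 in the old buffer replicate 2, 15.4 in the purified new buffer replicate 1 and 9.65 in the unpurified new buffer replicate 2. In the CD3G window the only region, CD3G-1 at chr11:118229971-118230526, was the promoter of the neighbour UBE4A, a ubiquitin ligase gene expressed in many tissues, and was called in all 6 libraries with a −log10 q of 11.0 to 16.6. CD3D had nothing, and the nearest region to its start was that same UBE4A promoter, 16551 bp away.

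CD2 had 2 regions and neither was at its start. CD2-1, at chr1:117307130-117307615 over exon 4 and intron 4, was called in 4 libraries with a −log10 q of 4.60 to 8.22. CD2-2, at chr1:117312218-117312647 downstream of the gene, was called in 5 libraries with a −log10 q of 6.55 to 10.5. Both were missing from the purified new buffer replicate 2, and CD2-1 also from the old buffer replicate 1. Their mean ranks, 73.0% and 59.6%, were in the weaker part of the lists.

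CD4 and LCK were without a region over windows of 43942 and 44922 bp. From the CD4 start the nearest region was 10233 bp away, at chr12:6888059-6888461 in 2 libraries. From the LCK start the nearest was 10334 bp away, at chr1:32706099-32706532 in 2 libraries. Of the regions called in all 6 libraries, the closest to the LCK start was the promoter of the histone deacetylase gene HDAC1, at chr1:32757299-32757952, just past the downstream edge of the window. An uncalled window shows that no peak passed the threshold of the caller at this depth, not that its chromatin is closed. The weakest peaks of the libraries had 8 or 9 reads at the summit.

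The lists of other lineages place these calls. Of 10 B-cell genes, the check on the cell line, all had a region in the window, and 3 had a promoter region in all 6 libraries, namely EBF1, MS4A1, which encodes CD20, and POU2AF1. Of the rest, 6 had one in 1 to 5 libraries, among them PAX5, CD79A, CD79B, CD22 and SPIB, and CD72 had none. Over all protein-coding genes, 75.3% had a region in the window and 45.5% a promoter region in all 6 libraries. At 3 of 10, the B-cell genes lay below that second share and below the 4 of 10 T-cell identity genes. Calls in all 6 libraries thus did not set the B-cell genes apart. Of 9 CpG-poor B-cell genes 8 had a promoter region in at least 1 library, beside 25.3% of all CpG-poor protein-coding genes. This was so for 0 of 6 CpG-poor T-cell identity genes and for 9 of 28 CpG-poor genes among the other T-cell genes. By mean rank MS4A1 stood at 13.9%, EBF1 at 22.9% and POU2AF1 at 23.3%, all before GATA3 at 26.2%. The median over all protein-coding genes called in all 6 was 21.5%. Among 10 erythroid and myeloid genes, CEBPA had a promoter region in all 6 libraries at a mean rank of 68.5%, CD14 in 1 to 5 and the other 8 in none. Both are named after their values were seen. The lists were chosen with earlier results of these data known, and the differences between them were not tested.

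Among 35 other T-cell genes, 9 had a promoter region in all 6 libraries, 5 in some and 21 in none, beside 45.5% of all protein-coding genes in all 6. CpG-poor genes made up 28 of the 35, and 5 of these were called in all 6 libraries, beside 14.1% of all CpG-poor genes. Of the 7 CpG-rich ones 4 were called in all 6, beside 62.7%. Both counts are near those shares. A T-cell gene with a CpG-poor canonical start was thus not always without a call. In receptor signalling the genes called in all 6 libraries included CD247, the CD3 zeta chain, at a mean rank of 57.2% and the kinase gene FYN at 9.80%. TIGIT, an inhibitory receptor, was the only 1 of 11 surface genes, at 10.9%, and 9 had no call. Of 8 transcription factors 4 were called, RUNX3 at 20.6%, EOMES at 26.4%, ZBTB7B at 46.7% and LEF1 at 53.5%. IFNG at 42.9% was the only one of 6 effector genes. LAT, LCP2, THEMIS, IL7R and TBX21, named after their values were seen, were called in 1 to 5 libraries.

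**Figure D5:**
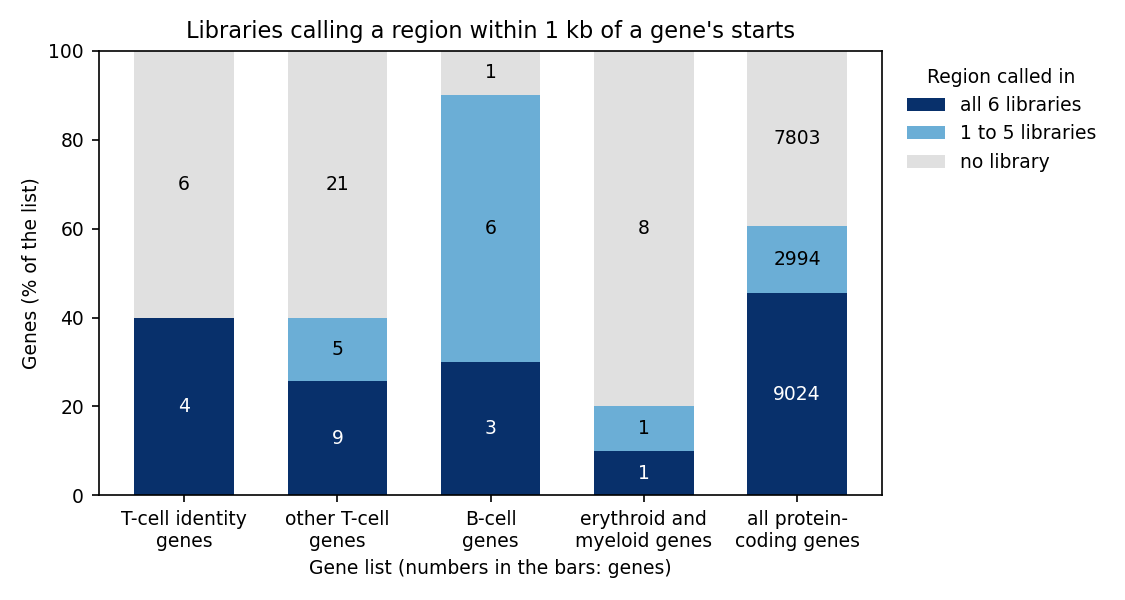
Share of genes in percent (y axis) with a region within 1 kb of a start called in all 6, in 1 to 5 or in no library, for 5 gene lists (x axis), with gene numbers in the bars. The T-cell identity genes split into 4 in all 6 libraries and 6 in none, while 6 of 10 B-cell genes lie between.

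Regions were denser in the T-cell gene windows than over all protein-coding windows, with 5.32 per 100 kb against 2.48, or 2.03 against 1.00 for regions called in all 6 libraries. The B-cell gene windows had 6.55 and 2.40. Window length differed between the sets, with 394.901 kb for the 10 T-cell genes and 915.655 kb for the 10 B-cell genes. The windows of all 19821 protein-coding genes covered 1421509174 bp. Each density is divided by its window length, and no further adjustment or test was made. The median number of regions per window was 1.5 for the T-cell genes, 2 for the B-cell genes and 1 for all protein-coding genes. GATA3 and TCF7 together supplied 12 of the 21 regions.

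The 3 protocols were compared to see whether the calls at these genes differed between them. The 4 own promoters were called in every library, so no protocol differed in that count. In the old buffer 15 and 14 peaks lay in the windows, or 14.5 ± 0.707 (SD, n = 2). The purified new buffer had 18 and 13 peaks (15.5 ± 3.54) and the unpurified new buffer 18 and 15 (16.5 ± 2.12). These ranges overlapped or touched. Peak bases in the windows were 5468 and 5253 in the old buffer, 7257 and 4869 in the purified new buffer and 7409 and 5604 in the unpurified new buffer, and only the last pair lay wholly above the old buffer. Over 9 exact two-sided permutation tests (3 measures and 3 pairs of protocols), p ran from 0.333 to 1, and adjusted by Benjamini-Hochberg all were 1. With 2 libraries against 2 the smallest p possible is 0.333, so the design cannot reach 0.05, and as the labels name no separate cultures the tests measure the spread between libraries, which may be technical. The differences were within reach of single libraries. Purified new minus old buffer, 1 peak, became -1.5 without the purified replicate 1, and unpurified minus purified new buffer, also 1 peak, became -1.5 without the purified replicate 2 and -0.5 without the unpurified replicate 1.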

How the data were processed

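Reads were trimmed, aligned to hg19 and freed of duplicates by the authors, who called narrow peaks with MACS2, of which no version is given in the sources used here. The submitters' processing notes name Bowtie2 2.1.0 and Picard 1.79. The methods describe merging the reads of a condition before peak calling, whereas 1 list per library was deposited. Each deposited peak carries the authors' score, the fold enrichment at its summit (a ratio), a −log10 p and a −log10 q. The score was not used.

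Peaks were ranked within each library by −log10 q. Summit reads and local background were solved from fold enrichment and −log10 p under the Poisson model of the caller, which fitted 100% of peaks within 0.001. Peaks that overlapped or touched were merged. A promoter reached 1 kb to either side of an annotated start (78703 coding starts, GENCODE 44 lifted to GRCh37, the build of hg19), and sequences came from the GRCh37 genome. Named were all 10 genes, neighbours with a promoter in their windows, from the other T-cell genes those called in all 6 libraries, from the B-cell genes those not called in all 6, and the genes nearest to GATA3 in rank. Some items that this rule selects are not reported here. Others are marked as named after their values were seen, or are B-cell genes called in all 6. The members and lists were chosen with earlier results of these data known.

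Protocols were compared over libraries by exact permutation tests, with Benjamini-Hochberg adjustment over 9 tests. Alternatives were a −log10 q of at least 5, the 30136 strongest peaks of each library, other windows, promoter widths and merging, and leaving out each library. Replicate numbers came from the labels. The code was tested on simulated data. Software was scipy 1.17.1 and numpy 2.4.6 for tests, pandas 2.3.3 for tables and matplotlib 3.10.9 for figures, under Python 3.11.15. Precision is set by summit reads, and the total depth is unknown.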

Additional observations from a re-analysis of the deposited data

How the results depend on the processing

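All 48 alternatives for the 4 counts of regions and promoters stayed within 1.5 times of the reported values. The 21 regions became 16 in gene bodies alone, 23 with 10 kb on each side, 18 with peaks below a −log10 q of 5 removed, 19 with equal numbers of peaks, and 20 to 22 with 1 library left out. The 8 regions called in all libraries became 8 to 10 with 1 left out, and 10 without the purified new buffer replicate 2. On leaving out a library, the counts of regions and promoters called in all libraries can fall only where a merged region splits. For these 2 counts, leaving out a library is therefore a weak check. The 4 promoters became 3, without CD8A, at canonical starts only.

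Of 84 alternatives for differences between protocols, 6 turned the direction, each by leaving out 1 library. Purified new minus old buffer ranged from -1.5 to 3.5 peaks and from -491.5 to 1896.5 bases, negative only without the purified replicate 1. Unpurified minus purified new buffer ranged from -1.5 to 3.5 peaks and from -750.5 to 1637.5 bases, and was negative without the purified replicate 2 (-1.5 and -750.5) and without the unpurified replicate 1 (-0.5 and -459). Unpurified new minus old buffer stayed positive, at 0.5 to 3.5 peaks and 243.5 to 2048.5 bases.

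Deviations of libraries with the same replicate number correlated at 0.0507, 0.0194 and 0.0380 over regions. Such weak correlations cannot exclude a shared batch, and replicate 1 had more peaks than replicate 2 in each protocol. The replicate block gave the same differences (1, 2 and 1 peaks), with a smallest possible p of 0.5, and changed no call. Ranking by summit reads in place of −log10 q, chosen after seeing the data, changed the mean rank by less than its SD for TCF7-1, TCF7-4, TCF7-5 and BCL11B-2, and by more for GATA3-2, GATA3-5, CD3G-1 and CD8A-2, to 11.2%, 22.9%, 46.5% and 61.9%.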
